A study of Mus musculus with 6 samples.

Results

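The genes described here are 29 genes of cholesterol synthesis and its control, chosen by name from the 55335 genes of the count table and found there through their GENCODE M21 symbols. They were measured by sequencing of total RNA in bone marrow-derived macrophages (BMDMs, macrophages grown in culture from mouse marrow with L929-conditioned medium) of C57BL/6 mice, which the study's methods give as males of 7 to 10 weeks. PBS was given to 3 control samples and LPS (lipopolysaccharide, a bacterial wall component that activates macrophages through a Toll-like receptor) to 3 samples, all collected at 1 h, with no deletion or other agent in either group. The LPS dose of this experiment and the number of mice behind the samples are not given in the sources used here, so p-values measure the spread between these samples.

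Cells make cholesterol from acetyl-CoA through mevalonate, isoprenoids, squalene and lanosterol. When sterol in the endoplasmic reticulum is low, the escort protein Scap carries SREBP2, the product of Srebf2, to the Golgi, where it is cut and released to switch on the genes of synthesis. When sterol is high, the Insig proteins hold Scap back, and oxysterols such as those made by Ch25h strengthen that hold. Macrophages take up much cholesterol from dead cells and lipoproteins, export it from lysosomes through Npc1 and Npc2 and store it as esters through Soat1.

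At 1 h of LPS, the genes of this pathway did not move as one block. Ch25h rose most, and Insig1 and Srebf2 rose with it. Among the enzymes, Hmgcs1, Idi1, Sqle and Cyp51 rose under TMM scaling (with library size alone Sqle was at 0.03 and Cyp51 at -0.04 on the log2 scale) while Lss and Fdps fell most, and the remaining enzymes fell by less or did not pass the test. The summed level of the 20 enzymes was 463 ± 8.42 CPM (SD, n = 3) in PBS and 475 ± 13.3 CPM (SD, n = 3) in LPS libraries, where CPM are read counts divided by the library total and edgeR's TMM factor. With library size alone the sums were 533 ± 8.77 CPM and 413 ± 13.5 CPM (SD, n = 3 each), so the order of the groups turns with the scaling.

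Promoter sequence is shown for 5 of these genes, Ch25h and Insig1 as the largest rises, Srebf2 as the transcription factor of the pathway, Hmgcs1 as the only one of the 23 genes with a promoter entry that held the sterol regulatory element searched, and Lss as the largest fall. The stretches come from RefSeq on GRCm38.p6, run 5′ to 3′ on the strand of each gene, and stop before the first annotated exon. They lie at chr19:34475165-34475382 on the minus strand for Ch25h and, on the plus strand, at chr5:28071162-28071362 for Insig1, chr15:82147019-82147180 for Srebf2, chr13:119690101-119690350 for Hmgcs1 and chr10:76531355-76531587 for Lss. Capitals mark matches to 6 patterns searched on both strands, namely the sterol regulatory element TCACNCCAC, the CCAAT box, the E-box CACGTG, an interferon-stimulated element (GAAA and GAAA set 2 bases apart), a loose NF-kB pattern (GGGA and CC set 4 bases apart) and the AP-1 site TGANTCA.
Ch25h: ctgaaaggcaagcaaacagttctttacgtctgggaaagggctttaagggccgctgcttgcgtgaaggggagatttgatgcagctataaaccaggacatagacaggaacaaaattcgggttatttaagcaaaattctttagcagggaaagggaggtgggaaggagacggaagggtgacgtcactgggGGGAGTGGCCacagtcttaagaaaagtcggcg
Insig1: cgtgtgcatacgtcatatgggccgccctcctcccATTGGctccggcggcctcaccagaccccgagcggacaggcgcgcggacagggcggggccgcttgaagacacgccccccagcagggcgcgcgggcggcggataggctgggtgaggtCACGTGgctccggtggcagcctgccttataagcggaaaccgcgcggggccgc
Srebf2: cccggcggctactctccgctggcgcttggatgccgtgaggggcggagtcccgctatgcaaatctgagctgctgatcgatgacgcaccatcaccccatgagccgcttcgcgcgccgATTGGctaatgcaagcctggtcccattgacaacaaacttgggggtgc
Hmgcs1: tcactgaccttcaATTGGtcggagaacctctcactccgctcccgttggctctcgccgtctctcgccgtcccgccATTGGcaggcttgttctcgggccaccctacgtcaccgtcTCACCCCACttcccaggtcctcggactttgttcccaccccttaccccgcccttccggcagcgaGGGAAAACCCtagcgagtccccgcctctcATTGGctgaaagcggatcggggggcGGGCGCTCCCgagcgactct
Lss: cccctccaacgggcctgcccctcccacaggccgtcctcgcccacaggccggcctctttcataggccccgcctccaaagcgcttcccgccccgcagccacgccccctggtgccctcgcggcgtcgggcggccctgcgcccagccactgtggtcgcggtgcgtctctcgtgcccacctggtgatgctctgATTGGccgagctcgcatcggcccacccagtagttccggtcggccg

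In the Hmgcs1 stretch the letters TCACCCCAC begin 137 bases before the RefSeq start site, between CCAAT boxes on the other strand. Insig1 held a CCAAT box and the E-box CACGTG, Srebf2 and Lss each held a CCAAT box, and Ch25h held only the loose NF-kB pattern. Over windows from 250 bases before to 50 after the start, a CCAAT box was found for 20 of the 23 genes (87.0%), against 41.1% of the 27025 genes of the promoter table and 42.9% of the 10158 tested genes with an entry. The GC box GGGCGG was found for the same number, 20 of 23, against 38.2% and 66.9%. CACGTG was found for 5 genes (21.7%), against 8.09% and 11.6%, and the sterol regulatory element for 1 gene (4.35%), against 1.44% and 1.36%. The interferon-stimulated element was found for 2 genes (8.70%, against 3.99% of all and 4.07% of tested genes), the loose NF-kB pattern for 10 (43.5%, against 22.9% and 30.2%) and the AP-1 site for 2 (8.70%, against 8.97% and 6.45%). These matches are descriptions of letters in a window, and a window with no match says nothing of the factor. The median GC content of the windows was 61.3% for these genes and 60.3% for the tested genes.

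The control libraries held between 39197666 and 41516330 counts and the LPS libraries between 37787611 and 39053424. The deposited values are read counts per gene without normalization, and LPS was compared with PBS by edgeR's quasi-likelihood test, with p-values adjusted by Benjamini-Hochberg across the 15687 genes that passed its filter on low counts, among them all 29 genes described here. The mean TMM factor was 1.15 in PBS and 0.869 in LPS libraries, and scaling by library size alone moved the median log2 fold change (log2FC) of all tested genes by -0.40, so small changes below depend on the scaling. The summed level of 7 macrophage markers lay between 29548 and 30823 CPM in PBS and between 32289 and 32639 CPM in LPS libraries. Most of this sum was Lyz2, with means of 23272 and 24224 CPM. Under TMM scaling Adgre1, Csf1r, Cd68, Itgam and Lyz2 rose at an adjusted p under 0.05 by edgeR (log2FC 0.06 to 0.35). Fcgr1 fell (-0.48) and Mertk did not pass (-0.04). Markers of other cells summed to far less, with the highest, 6 neutrophil markers, between 33.6 and 35.8 CPM in PBS and between 44.3 and 46.2 CPM in LPS libraries, and 3 dendritic cell markers between 1.195 and 1.45 CPM and between 4.93 and 6.17 CPM. Fibroblast markers (5 genes) lay between 13.5 and 14.6 CPM and between 15.2 and 17.6 CPM, and T cell and B cell markers (3 genes each) did not exceed 1.25 CPM. No marker was at 0 in every library, though Ly6g, which defines neutrophils, had at most 3 counts, and the part of these cells in the results was not tested. In bulk RNA, fewer cells of a type and less RNA per cell cannot be told apart.

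By the study's criteria, an absolute log2FC above 1 together with an adjusted p under 0.05, 2 of the 29 genes rose (Ch25h and Insig1) and 0 fell. Over all tested genes 10.5% rose and 10.4% fell by the same criteria. With DESeq2's test the counts of the 29 were also 2 and 0, where 10.5% of all tested genes rose and 9.61% fell. At an adjusted p under 0.05 alone, 11 rose against 32.9% of all tested genes, and 9 fell against 34.9% (37.9% and 31.0% of the 29). Of all tested genes 67.7% passed in either direction. The split was 5 rises and 21 falls with scaling by library size alone, where 15.0% of all tested genes rose and 65.9% fell. It was 8 rises and 12 falls with upper quartile scaling, where 23.6% of all rose and 46.3% fell. Groups did not overlap in normalized CPM for 13 genes that were higher (33.9% of all tested genes) and 7 that were lower (36.6%). The median log2 fold change of the 29 genes was 0.08 against -0.01 for all tested genes, and it turned to -0.33 with library size alone, where that of all tested genes was -0.42, and to -0.06 with upper quartile scaling. No count or median of the list is read as particular to it, and the description below concerns single genes.

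**Figure D1:**
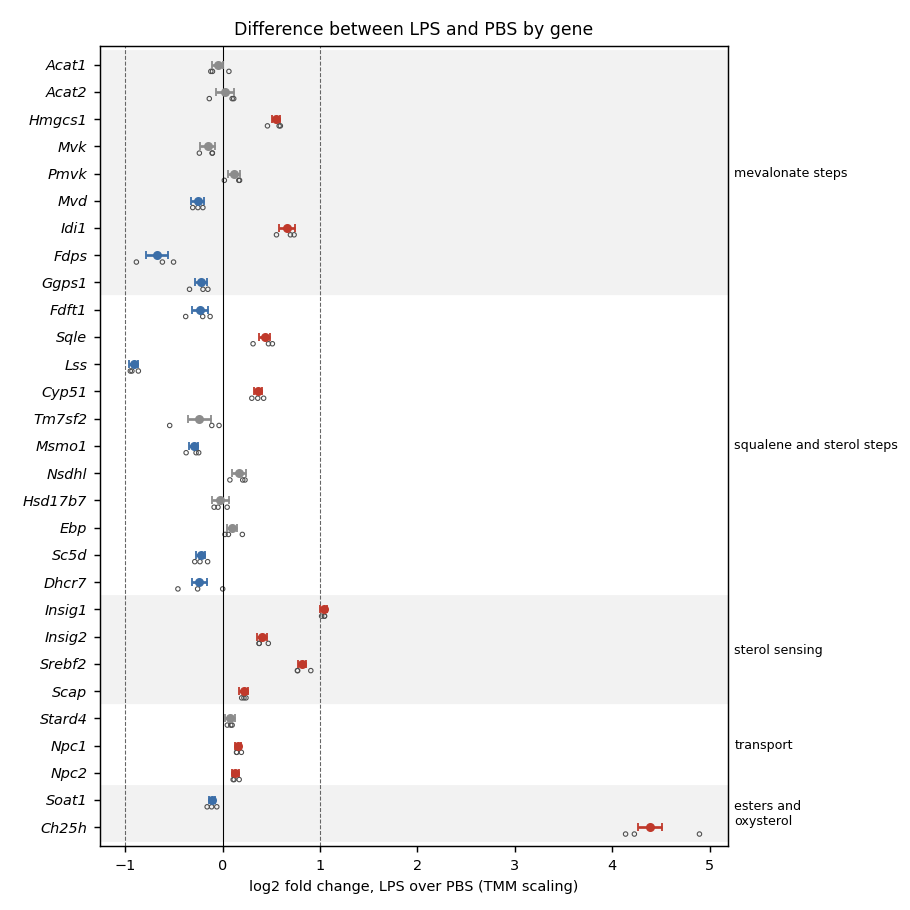
Log2 fold change of each gene, LPS over PBS, under TMM scaling (x axis), with genes in pathway order (y axis). Filled points with bars are edgeR estimates with their SEs, coloured red for a rise and blue for a fall at an adjusted p under 0.05 and grey otherwise, open circles are the 3 same-numbered pairs, and dashed lines mark 1 and -1. Ch25h (4.39) stands far to the right, Insig1 (1.04) just beyond the dashed line, and Lss (-0.91) lies lowest.

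Under TMM scaling, all 4 genes of sterol sensing rose at an adjusted p under 0.05, as did 32.9% of all tested genes. Insig1, a membrane protein that holds Scap in the endoplasmic reticulum and is itself a target of SREBP2, had 103.2, 102.1 and 103.0 CPM in PBS and 213, 211 and 208 CPM in LPS libraries. The groups did not overlap and each was tight. The mean was 103 ± 0.585 CPM (SD, n = 3) in PBS and 211 ± 2.41 CPM (SD, n = 3) in LPS, a 2.05-fold rise (log2FC 1.04, with a standard error, SE, of 0.03, adjusted p = 2.37e-15 by edgeR). With scaling by library size alone its log2 fold change was 0.63 and with upper quartile scaling it was 0.89, so the criterion of 1 was missed while the rise remained past an adjusted p of 0.05.

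Srebf2, which encodes the transcription factor SREBP2, had 69.6, 77.9 and 74.5 CPM in PBS and 130.5, 133 and 127 CPM in LPS libraries. All LPS libraries lay above all PBS libraries, and PBS varied more than LPS. The rise was 1.76-fold (log2FC 0.81, SE 0.04, adjusted p = 3.91e-12 by edgeR) and lay between 0.77 and 0.85 in the 6 fits that each omit 1 library. With library size alone it was 0.41 (adjusted p = 6.73e-08).

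Insig2, the second Insig protein, had 19.7, 20.0 and 18.9 CPM in PBS and 25.6, 25.9 and 26.2 CPM in LPS libraries, again without overlap. The log2 fold change of 0.41 (SE 0.05, adjusted p = 1.16e-06 by edgeR) fell to 0.0025 (adjusted p = 0.964) with library size alone. Scap, the escort of SREBP2, went from 47.3 ± 2.38 CPM in PBS to 55.0 ± 2.02 CPM in LPS (SD, n = 3 each), a log2FC of 0.22 (adjusted p = 3.24e-04 by edgeR) that was -0.19 (adjusted p = 0.00103) with library size alone and 0.08 (adjusted p = 0.143) with upper quartile scaling. The calls of Insig2 and Scap at an adjusted p of 0.05 thus depend on the scaling. Insig1 and Srebf2 kept direction and this call under all 4 scalings, but not the size of their rise.

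Ratios of a pair of genes within the same library are free of any scaling between libraries, and 6 such pairs were chosen after the values were seen. Each has the gene with the higher log2 fold change on top, so the direction of the ratios follows from the choice. Counts per kb of exon of Insig1 were 5.89, 5.74 and 6.12 times those of Insig2 in PBS and 9.37, 9.15 and 8.94 times in LPS libraries. Those of Srebf2 were 1.56, 1.61 and 1.69 times those of Scap in PBS and 2.52, 2.40 and 2.44 times in LPS. In both pairs the LPS libraries lay above all PBS libraries, so Insig1 and Srebf2 gained on their partners whatever the scaling.

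**Figure D2:**
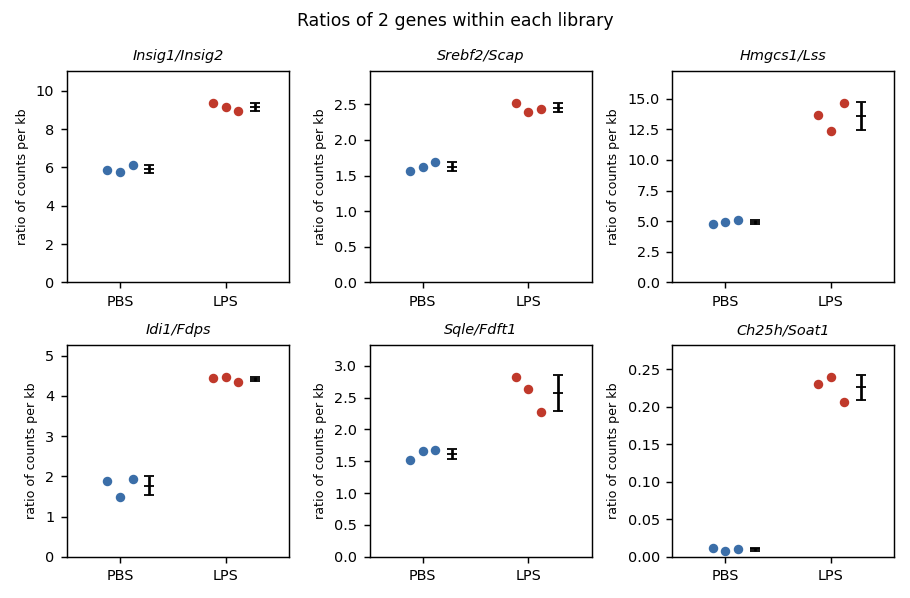
Ratio of counts per kb of exon of a pair of genes within each library (y axis, from 0) for PBS (blue) and LPS (red), with the mean and SD of 3 libraries beside the points. In all 6 pairs the LPS points lie above the PBS points, from a mean of 5.92 to 9.15 for Insig1 over Insig2 and from 4.93 to 13.6 for Hmgcs1 over Lss. Each pair has the gene with the higher log2 fold change on top, so this shared direction follows from the choice of pairs.

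Ch25h encodes the enzyme that hydroxylates cholesterol to an oxysterol which blocks SREBP2 processing and restrains some viruses. This gene of a single exon (ENSMUSG00000050370, chromosome 19, 34473778 to 34475164, minus strand) had 50, 30 and 45 counts in PBS and 660, 645 and 584 counts in LPS libraries. On the scale of normalized CPM these were 1.05, 0.664 and 0.975 in PBS and 19.7, 19.8 and 17.2 in LPS. Each LPS library was far above each PBS library, and PBS replicate 2 was the lowest. The rise was 20.9-fold (log2FC 4.39, SE 0.12, adjusted p = 6.28e-16 by edgeR) and ranged from 3.98 to 4.51 over all 14 alternative fits. The lncRNA Gm26902 on the other strand shares 159 bases with its exon and had at most 15 counts in any library.

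Soat1, which esterifies cholesterol for storage in droplets, changed little beside Ch25h. It had 627, 630.2 and 653 CPM in PBS and 602, 583 and 586 CPM in LPS libraries, with all LPS values lower. The log2FC was -0.11 (SE 0.03, adjusted p = 0.00763 by edgeR), and it had an adjusted p under 0.05 with the same direction in all 14 alternative fits. It was -0.51 with library size alone, -0.25 with upper quartile and -0.09 with median-of-ratios scaling. The first 2 of these scalings move most genes downward, so they could not have turned this small fall into a rise. Ch25h per kb of exon was 0.0118, 0.00744 and 0.0105 times Soat1 in PBS and 0.231, 0.239 and 0.207 times in LPS libraries.

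Of the 9 enzymes from acetyl-CoA to isoprenoids, 2 rose, 3 fell and 4 did not pass an adjusted p of 0.05, where 32.9% of all tested genes rose and 34.9% fell. Hmgcs1, which makes HMG-CoA from acetoacetyl-CoA, had 60.7, 62.9 and 65.1 CPM in PBS and 91.6, 86.6 and 97.3 CPM in LPS libraries. No LPS library came near the PBS range after TMM scaling, though LPS replicate 2 had fewer counts (2825) than any PBS library (2891, 2840 and 3002). The rise was 1.46-fold (log2FC 0.55, SE 0.04, adjusted p = 3.33e-09 by edgeR), and with library size alone it was 0.14 (adjusted p = 0.00787). Idi1, which interconverts the isoprenoid building blocks, had 6.55, 6.46 and 7.33 CPM in PBS and 10.9, 10.5 and 10.8 CPM in LPS libraries. The LPS values were alike and all above PBS, a log2FC of 0.66 (SE 0.08, adjusted p = 8.93e-07 by edgeR) that was 0.26 (adjusted p = 0.00735) with library size alone.

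Fdps, the next enzyme after Idi1, which joins these units into farnesyl diphosphate, moved the other way. It had 4.18, 5.20 and 4.55 CPM in PBS and 2.95, 2.82 and 2.97 CPM in LPS libraries, without overlap. The log2FC was -0.67 (SE 0.12, adjusted p = 6.12e-05 by edgeR), and -1.08 with library size alone. Of its exonic bases, 26.7% are shared with the gene model Gm43738 on the same strand, which had 0 counts in every library, and how shared reads were counted is not given in the sources used here. Idi1 per kb was 1.88, 1.49 and 1.93 times Fdps in PBS and 4.44, 4.46 and 4.35 times in LPS libraries.

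Mvd, which decarboxylates mevalonate diphosphate, went from 12.7 ± 0.413 CPM in PBS to 10.7 ± 0.0602 CPM in LPS (SD, n = 3 each), a log2FC of -0.25 (adjusted p = 0.00273 by edgeR), without overlap. Ggps1, which makes the geranylgeranyl chain for protein prenylation, went from 29.6 ± 1.26 CPM in PBS to 25.3 ± 2.49 CPM in LPS (SD, n = 3 each), a log2FC of -0.23 (adjusted p = 0.00383 by edgeR), also without overlap. The kinases Mvk and Pmvk, which phosphorylate mevalonate in turn, had log2FCs of -0.15 (adjusted p = 0.102) and 0.12 (adjusted p = 0.1001 by edgeR). The thiolases Acat1, which is mitochondrial, and Acat2, which is cytosolic, had -0.05 (adjusted p = 0.467) and 0.03 (adjusted p = 0.814), with overlapping groups.

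Of the 11 enzymes from squalene to cholesterol, 2 rose, 5 fell and 4 did not pass, against the same shares of all tested genes. Sqle, the squalene epoxidase that limits the rate of this stretch, had 25.2, 23.7 and 27.1 CPM in PBS and 35.9, 32.9 and 33.6 CPM in LPS libraries. Cyp51, the lanosterol demethylase, had 44.6, 41.4 and 42.6 CPM in PBS and 54.9, 53.2 and 57.1 CPM in LPS libraries. For both genes every LPS library was above every PBS library. Sqle had a log2FC of 0.43 (SE 0.05, adjusted p = 1.65e-06) and Cyp51 one of 0.36 (SE 0.04, adjusted p = 7.62e-07 by edgeR). With library size alone these were 0.03 (adjusted p = 0.663) and -0.04 (adjusted p = 0.366), so their direction relative to PBS rests on the composition factor, while both stayed above the median of all tested genes at -0.42.

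Lss, which folds squalene epoxide into lanosterol and so stands between Sqle and Cyp51, had 30.0, 29.9 and 30.1 CPM in PBS and 15.7, 16.4 and 15.6 CPM in LPS libraries. Replicates lay close together and the groups far apart. The level fell 1.88-fold (log2FC -0.91, SE 0.05, adjusted p = 1.80e-11 by edgeR). With library size alone the log2 fold change was -1.32 and with upper quartile scaling -1.06, past the criterion of -1. Hmgcs1 per kb was 4.76, 4.94 and 5.08 times Lss in PBS and 13.7, 12.4 and 14.7 times in LPS libraries. Fdft1, which makes squalene, had a log2FC of -0.23 (adjusted p = 0.0191 by edgeR) that missed an adjusted p of 0.05 with DESeq2's test (0.0521) and without PBS replicate 1 (0.0721), PBS replicate 3 (0.0620), LPS replicate 1 (0.0803) or LPS replicate 2 (0.0856). Of its exonic bases 18.3% overlap the far more abundant Ctsb on the other strand, and the strand setting of the counting is not given in the sources used here. Sqle per kb was 1.52, 1.65 and 1.67 times Fdft1 in PBS and 2.82, 2.64 and 2.27 times in LPS libraries.

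Msmo1, the methyl sterol oxidase that acts after Cyp51, had 66.3, 62.2 and 68.7 CPM in PBS and 55.0, 52.5 and 53.0 CPM in LPS libraries, all LPS values being lower. Its log2FC was -0.30 (SE 0.04, adjusted p = 6.71e-06 by edgeR). Sc5d, a late desaturase, had -0.22 (adjusted p = 2.46e-04) and Dhcr7, which makes cholesterol from its last precursor on one branch, -0.24 (adjusted p = 0.0129 by edgeR). Dhcr7 missed an adjusted p of 0.05 without PBS replicate 2 (0.0750) and without LPS replicate 2 (0.0659). The sterol reductase Tm7sf2 (-0.24, adjusted p = 0.0850), the sterol dehydrogenase Nsdhl (0.17, 0.0503), the ketosteroid reductase Hsd17b7 (-0.02, 0.820) and the sterol isomerase Ebp (0.10, 0.118) did not pass. Of the exonic bases of Tm7sf2, 12.1% are shared with Vps51 on the same strand. Vps51 had between 1115 and 1681 counts and Tm7sf2 between 130 and 262, and how shared reads were counted is not given in the sources used here. Nsdhl had LPS values of 10.6 to 11.4 CPM above PBS values of 9.21 to 10.2 CPM, and with the replicate number as a block its adjusted p was 0.0414.

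**Figure D3:**
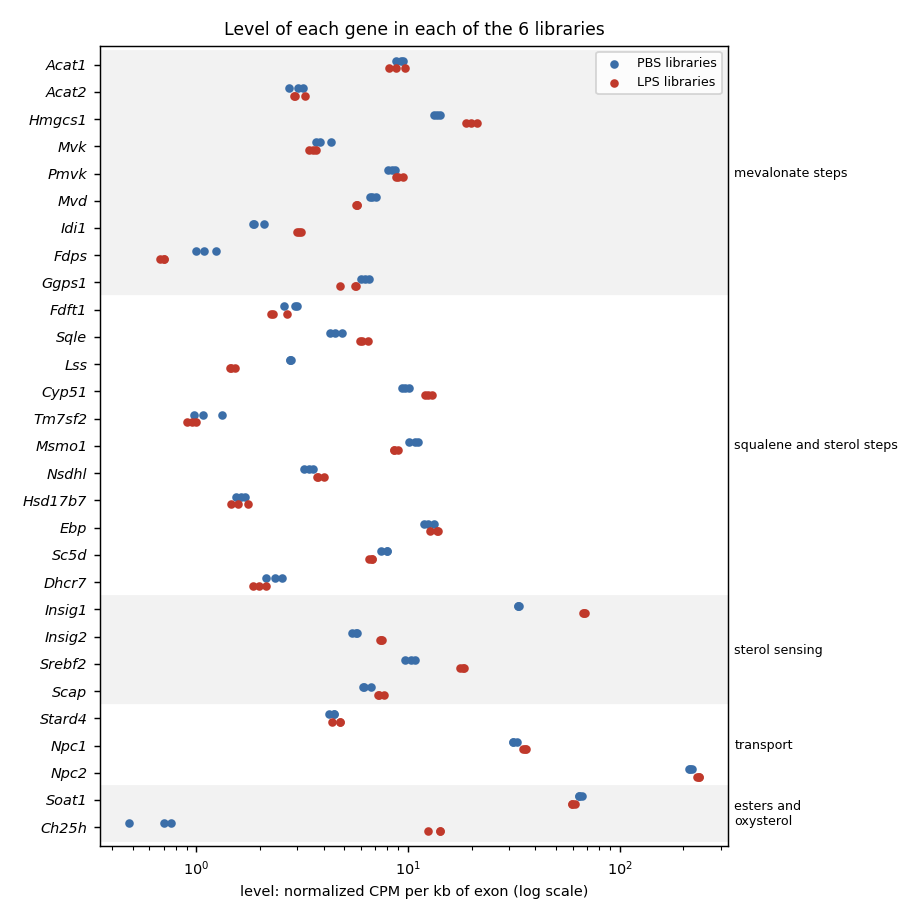
Level of each gene in each library as normalized CPM per kb of exon (x axis, log scale), in pathway order (y axis), with PBS libraries in blue and LPS libraries in red. Npc2 lies highest (means 215 and 236) and Ch25h moves from the lowest place in PBS (0.646) to the middle of the range in LPS (13.6).

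Of the 3 transport genes, Npc2 and Npc1 were among the most abundant of the list. Npc2, the lysosomal protein that hands cholesterol to Npc1, had 1152, 1190.0 and 1171 CPM in PBS and 1297, 1292 and 1263 CPM in LPS libraries. Npc1, which moves that cholesterol through the lysosomal membrane, had 369, 357 and 355 CPM in PBS and 408, 395 and 406 CPM in LPS libraries. Both were higher in all LPS libraries after TMM scaling, with log2FCs of 0.13 (adjusted p = 0.00149) for Npc2 and 0.16 (adjusted p = 3.04e-04 by edgeR) for Npc1. Both turned to falls with library size alone (-0.27 and -0.24), so no direction can be given apart from the scaling. Stard4, a soluble carrier of sterol between membranes, had a log2FC of 0.08 (adjusted p = 0.193 by edgeR).

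Compared per kb of exon, where the length is the union of all annotated exons of a gene, the order of mean levels in PBS was led by Npc2 (215 normalized CPM per kb), Soat1 (65.0), Insig1 (33.2) and Npc1 (31.8). The libraries of Insig1 lay above those of Npc1 without overlap. The enzymes lay lower, from 13.7 for Hmgcs1 and 12.6 for Ebp down to 1.12 for Tm7sf2 and 1.10 for Fdps, and the last 2 did not differ beyond their spread. Tm7sf2 and Fdps share 12.1% and 26.7% of their exonic bases with another gene on the same strand. The length used keeps these bases, and whether the overlap lowers the levels of Tm7sf2 and Fdps was not tested. In LPS libraries Insig1 (68.2) passed Soat1 (60.3), and Ch25h moved from last place of the 29 genes (0.646) to place 7 (13.6), next to Ebp at 13.4. Srebf2 moved from 10.3 to 18.1.

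Over all 15 fits, the one reported and 14 alternatives, 5 genes rose with an adjusted p under 0.05 every time (Hmgcs1, Idi1, Insig1, Srebf2 and Ch25h) and 7 fell every time (Mvd, Fdps, Ggps1, Lss, Msmo1, Sc5d and Soat1). A further 6 rose (Sqle, Cyp51, Insig2, Scap, Npc1 and Npc2) and 2 fell (Fdft1 and Dhcr7), but not in each fit. The other 9 did not pass in the fit reported. In that fit 32.9% of all tested genes rose and 34.9% fell. The share of all tested genes called in every fit was not computed, so these counts are not read as particular to the list. The other scalings moved the median of all tested genes by -0.40 (library size alone), -0.14 (upper quartile) and 0.02 (median of ratios). Agreement between scalings therefore asked more of a rise than of a fall.

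**Figure D4:**
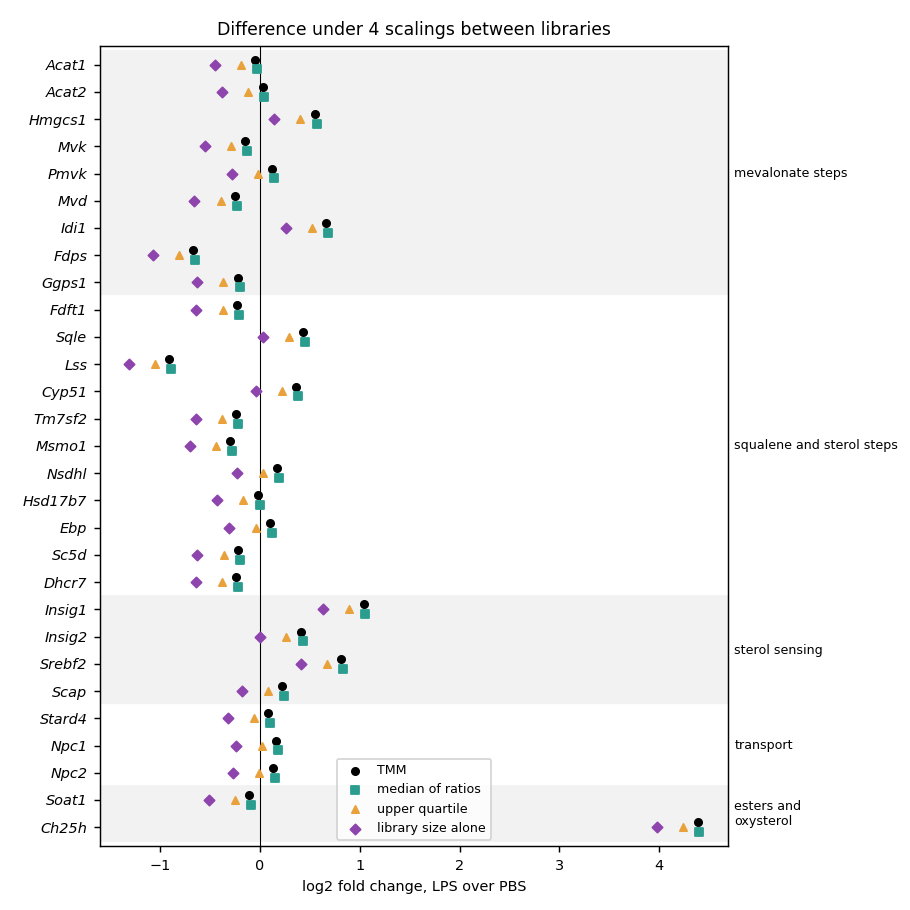
Log2 fold change of each gene (x axis), LPS over PBS, under TMM (black circles), median-of-ratios (green squares), upper quartile (orange triangles) and library size scaling (purple diamonds), genes in pathway order. Library size alone moves each gene to the left by about the same step, and Hmgcs1, Idi1, Insig1, Srebf2 and Ch25h stay to the right of 0 under all 4.

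Genes around the pathway were taken in 4 lists. Of 12 genes of SREBP processing and degradation, 7 rose and 2 fell at an adjusted p under 0.05, with a median log2 fold change of 0.10, beside 32.9% and 34.9% of all tested genes. With library size alone 0 rose and 11 fell, beside 15.0% and 65.9% of all. Rnf139, an endoplasmic reticulum ubiquitin ligase, was among the falls (-0.61, SE 0.05, adjusted p = 1.48e-09 by edgeR). The rise furthest from 0 was that of Fbxw7 (0.35, adjusted p = 9.21e-07 by edgeR), a ubiquitin ligase subunit that recognises nuclear SREBP. Mbtps1, the first protease to cut SREBP in the Golgi, had a log2FC of 0.0016 (adjusted p = 0.970 by edgeR).

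Of 14 genes of the isoprenoid branch, which leads to ubiquinone, dolichol and prenylated proteins, 2 rose and 6 fell (14.3% and 42.9%, beside 32.9% and 34.9% of all tested genes), with a median of -0.13. Trit1, which prenylates tRNA, fell from 11.99 ± 0.324 CPM in PBS to 5.67 ± 0.586 CPM in LPS (SD, n = 3 each), a log2FC of -1.08 (SE 0.08, adjusted p = 2.81e-09 by edgeR). Nus1, a subunit of the dolichol-making enzyme, rose (0.56, SE 0.04, adjusted p = 7.50e-10), and Fnta, the shared subunit of the protein prenyltransferases, fell (-0.45, SE 0.04, adjusted p = 5.03e-08 by edgeR). Zmpste24, which trims prenylated prelamin A, had a log2FC of 0.31 (adjusted p = 6.75e-06 by edgeR).

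Of 15 genes of SREBP1 and fatty acid synthesis, 13 were tested, of which 2 rose and 3 fell (15.4% and 23.1%, beside 32.9% and 34.9% of all tested genes), with a median of 0.04. Elovl5, an elongase of polyunsaturated fatty acids, rose from 69.2 ± 0.927 CPM in PBS to 191 ± 8.69 CPM in LPS (SD, n = 3 each), a log2FC of 1.47 (SE 0.04, adjusted p = 1.78e-16 by edgeR). The desaturases Scd1 and Scd2 moved apart under TMM scaling, with 0.40 for Scd1 (adjusted p = 1.51e-05) and -0.36 for Scd2 (adjusted p = 3.58e-08 by edgeR). Me1, which supplies NADPH, had 0.37 (adjusted p = 0.0569 by edgeR). With library size alone 1 gene of this list rose and 9 fell, beside 15.0% and 65.9% of all tested genes, so the rise of Scd1 is given for TMM scaling only. Thrsp had 0 counts and Pnpla3 at most 3 counts in every library. The rises of this list numbered 4 with the replicate number as a block, where 33.9% of all tested genes rose. They also numbered 4 without PBS replicate 1 (31.4% of all tested genes) or without LPS replicate 2 (30.9%).

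Of 21 genes of sterol trafficking, esters and oxysterols, 19 were tested, of which 5 rose and 7 fell (26.3% and 36.8%, beside 32.9% and 34.9% of all tested genes), with a median of 0.04. Gramd1a and Gramd1b, which carry plasma membrane cholesterol to the endoplasmic reticulum, rose past both criteria under TMM scaling, with log2FCs of 1.58 (55.3 ± 0.880 CPM in PBS and 165 ± 5.80 CPM in LPS, SD, n = 3 each, adjusted p = 3.74e-17) and 1.09 (136 ± 1.42 CPM in PBS and 291 ± 4.17 CPM in LPS, SD, n = 3 each, adjusted p = 1.17e-15 by edgeR). Gramd1b lies close to the criterion of 1. Library size alone moved the median of all tested genes by -0.40 and upper quartile scaling by -0.14, so its passing of that criterion is given for TMM scaling only. Hsd3b7, a bile acid enzyme that also acts on oxysterols, fell from 2.66 ± 0.620 CPM in PBS to 1.13 ± 0.215 CPM in LPS (SD, n = 3 each), a log2FC of -1.23 (SE 0.20, adjusted p = 2.31e-05 by edgeR). The oxysterol-binding protein relatives Osbpl3 (0.79, adjusted p = 8.50e-11) and Osbpl11 (-0.68, adjusted p = 4.01e-12 by edgeR) moved apart, and Gramd1c, at a mean of 0.971 CPM in PBS, fell (-0.67, adjusted p = 0.0132 by edgeR). Soat2, the second ester-forming enzyme, had between 7 and 18 counts, and Cyp7b1, which hydroxylates oxysterols, had at most 2 counts in any library, so both were too low to be tested.

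**Figure D5:**
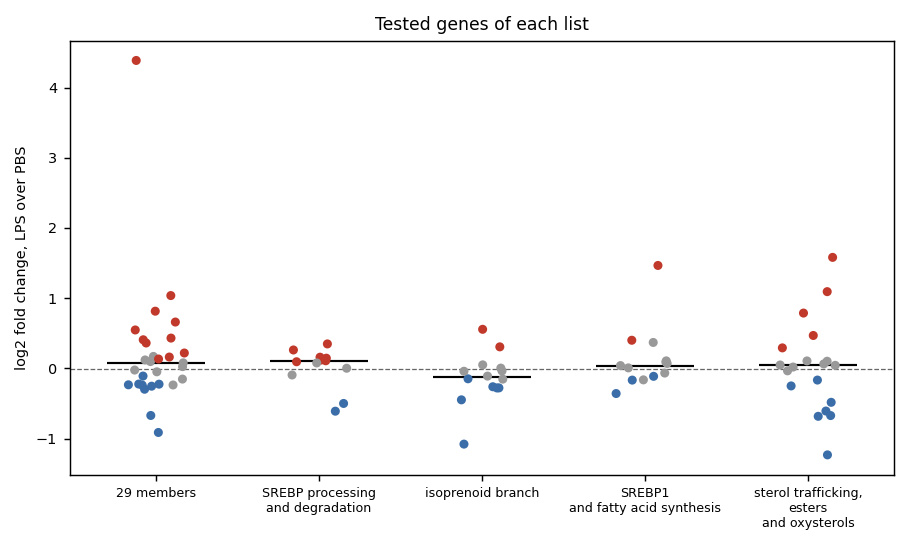
Log2 fold change of each tested gene, LPS over PBS (y axis), for the 29 genes and 4 lists of neighbouring genes (x axis), coloured red for a rise and blue for a fall at an adjusted p under 0.05 and grey otherwise. Black bars are list medians (0.08, 0.10, -0.13, 0.04 and 0.04 from left to right) and the dashed line is the median of all tested genes (-0.01).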

How the data were processed

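Total RNA of 3 PBS and 3 LPS samples of BMDMs was sequenced by the authors with a stranded kit (paired-end reads of 101 bp). Per the submitters' processing notes, they used HISAT2 2.1.0 on GRCm38, SAMtools 1.17 and featureCounts 2.0.0, and deposited the read counts per gene without normalization. Annotation release, strand setting and treatment of multiply mapping reads are not given in the sources used here. Of 55335 identifiers, 55154 matched GENCODE M21 (GRCm38) without version. All per-sample columns were mapped by library name.

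From the counts, edgeR 4.0.16 in R 4.3.3 was run with filterByExpr, TMM and the quasi-likelihood test without a batch term. The study's tool, DESeq2, was an alternative, and whether its model had a batch term is not given in the sources used here. Standard errors were derived from the F statistic. Functions were tested on simulated data. The members and gene lists were chosen with earlier results of these data known. All 29 genes were named, with companion genes past both criteria and otherwise at most 3 of a list by size of change, plus Mbtps1, Thrsp, Pnpla3, Soat2 and Cyp7b1, added after their values were seen. The alternatives were 3 other scalings, 2 other filters, DESeq2 1.42.0, limma voom (limma 3.58.1), a replicate block and leaving out each library. Other genes of the pathway are not reported here.

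The labels give each sample a batch number equal to its replicate number and shared by 1 PBS and 1 LPS sample, and this was taken to pair them. What the batch stands for is not given in the sources used here. Taken as deviations from the group mean, the pairs that share a number correlated at -0.0139, 0.0822 and 0.0387 across tested genes. A floor of 3 counts corresponds to between 0.0630 and 0.0919 CPM and, without molecular identifiers in the reads, covers only the error of counting.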

Additional observations from a re-analysis of the deposited data

How the results depend on the processing

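Scaling between libraries was the choice that mattered most. With library size alone, 1 gene rose and 2 fell past both criteria, 5 rose and 21 fell at an adjusted p under 0.05, and the median of the 29 genes was -0.33, where of all tested genes 7.73% rose and 18.9% fell past both criteria and 15.0% rose and 65.9% fell at an adjusted p under 0.05. With upper quartile scaling 1 rose and 1 fell past both criteria and the median was -0.064, where 9.35% and 12.6% of all tested genes passed both criteria and 23.6% and 46.3% an adjusted p under 0.05. Log2 fold changes that reversed with library size alone were -0.38 for Acat2, -0.28 for Pmvk, -0.043 for Cyp51, -0.23 for Nsdhl, -0.31 for Ebp, -0.19 for Scap, -0.33 for Stard4, -0.24 for Npc1 and -0.27 for Npc2, and with upper quartile scaling -0.12 for Acat2, -0.023 for Pmvk, -0.046 for Ebp, -0.064 for Stard4 and -0.0096 for Npc2. The mean TMM factor, which these settings leave out or replace, was 1.15 in PBS and 0.869 in LPS libraries. Why it differs between the groups was not tested.

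Leaving out 1 library reversed only values close to 0, which ranged over these fits from -0.12 to 0.0093 for Acat1 (reversed without LPS replicate 2), from -0.035 to 0.075 for Acat2 (reversed without PBS replicate 2 or LPS replicate 3) and from -0.10 to 0.036 for Hsd17b7 (reversed without PBS replicate 3 or LPS replicate 1). Over the 29 genes and 14 alternatives, 363 of 406 values kept direction and side of the threshold, 19 reversed, 11 lost it and 13 gained it. With the replicate number as a block, 12 of the 29 genes rose and 9 fell, where 33.9% of all tested genes rose and 35.7% fell. The median of the 29 genes was 0.08 in that fit. Compared gene by gene, 1 call of the 29 genes changed (Nsdhl), 2 of the fatty acid list and 0 of the other 3 lists.

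The counts of the neighbouring lists stand beside the same shares of all tested genes, with 19.6% rising when no filter beyond 1 count was set. With median-of-ratios scaling 34.3% of all tested genes rose and 33.4% fell. For genes of SREBP processing and degradation, 0 rose and 11 fell with library size alone, 2 rose and 4 fell with upper quartile scaling, and 4 rose with no filter beyond 1 count. The isoprenoid branch had 1 rise and 13 falls with library size alone and 10 falls with upper quartile scaling. Fatty acid synthesis had 5 rises with median-of-ratios scaling, 1 rise and 9 falls with library size alone, 6 falls with upper quartile scaling and 4 rises with the replicate block, and between 2 and 4 rises when each library was left out. Sterol trafficking had 3 rises and 15 falls with library size alone and 11 falls with upper quartile scaling. These companion counts under alternatives were added after the data were seen. Where an effect of the filter or the block is given, the cause was not tested.

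The summed level of the 20 enzymes under library size alone was also added after the data were seen. With motifs sought on the strand of the gene alone, a CCAAT box was found for 47.8% of the 23 promoters. In that search it was found for 23.7% of all genes with a promoter entry and 25.3% of the tested genes with an entry. The loose NF-kB pattern was found for 21.7% of the 23 promoters, against 13.1% of all and 17.4% of tested genes.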
